A study of Xenopus laevis with 9 samples.

Results

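The genes described here are receptors, ligands and a signalling regulator used by migrating cranial neural crest: cxcr4, cxcl12, pdgfra, pdgfa, ednra, erbb3 and rgs2. They were taken by symbol, as all probe sets annotated to one of these 7 gene names once the suffix .L or .S was removed. The rule found 6 of the 7 names, as 9 of the 15491 probe sets and 7 of the 7531 different gene symbols. These were cxcr4.S, cxcr4.L, cxcl12.L, ednra.L and rgs2.L with 1 probe set each, and pdgfra.L and pdgfa.S with 2 each. The suffixes mark the copies of a gene on the long and short chromosomes of the duplicated Xenopus laevis genome. No probe set here was annotated to erbb3, the neuregulin receptor, which was therefore not analysed.

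RNA came from cranial neural crest explants cut from Xenopus laevis embryos at stages 15 to 17 and extracted at once. Embryos were injected before the first cleavage and kept at 15 °C, in 3 groups with 3 arrays each. MO13+C13 embryos received 10 ng of a morpholino against the metalloprotease ADAM13 and also mRNA for a GFP fusion of the cytoplasmic domain of ADAM13, MO13 embryos the 10 ng of ADAM13 morpholino alone, and CMO embryos 10 ng of a control morpholino. The mRNA dose is given as 300 pg in the sample labels and as 0.5 ng in the series text, and which was used cannot be told from the data. Arrays numbered 1, 2 and 3 in every group came from the same 3 independent experiments. Every group is thus injected with a morpholino, the injected material reaches all tissues of the embryo, and the labels do not say how many embryos an explant sample pools.

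Cxcr4 is a receptor coupled to inhibitory G proteins and Cxcl12 is the chemokine that activates it. In Xenopus this pair draws the cranial crest towards tissue that makes the chemokine. The receptor tyrosine kinase Pdgfra and its ligand Pdgfa also guide crest cells, and the endothelin receptor Ednra, signalling through Gq proteins, is known mainly for patterning the lower jaw crest. Rgs2 shortens G protein signals by speeding GTP hydrolysis on Gq.

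Values are log2 intensities, so a difference of 1 is a doubling of signal, and levels of different probe sets are not set against each other. Array medians ran from 4.88 to 5.07 and lower quartiles from 1.78 to 1.89. The adam33.L probe set, for the gene that encodes ADAM13, read 10.00, 9.98 and 10.23 in MO13+C13, 4.42, 3.78 and 4.81 in MO13 and 3.07, 4.50 and 3.34 in CMO. A morpholino need not lower its target's mRNA, so this shows the injected mRNA but checks nothing about the knockdown. Of 15 gene copies on a list of cranial crest markers, 14 had a mean above the lower quartile of all probe sets, and alx1.L lay below it.

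The clearest pattern among the migration genes was in the S copy of the chemokine receptor. The cxcr4.S probe set read 8.40, 6.68 and 8.81 in MO13 arrays 1, 2 and 3, against 9.32, 9.17 and 9.43 in CMO. All MO13 arrays lay below all CMO arrays, and experiment 2 gave the lowest value. With the cytoplasmic domain added, cxcr4.S read 8.46, 7.62 and 9.05, again below every CMO array and with experiment 2 lowest. Means were 8.38 ± 0.72 in MO13+C13, 7.96 ± 1.13 in MO13 and 9.31 ± 0.13 in CMO (SD, n = 3 each), so the control arrays were the least spread.

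MO13 lay 1.34 below CMO for cxcr4.S (log2 difference -1.34, SE 0.55, 95% interval -2.60 to -0.08), or 39.4% of the CMO signal. Within experiments 1, 2 and 3 the difference was -0.92, -2.49 and -0.62. It did not pass limma's test over all 15491 probe sets (adjusted p = 0.695), nor with experiment as a block (limma adjusted p = 0.0987, interval -2.09 to -0.59). Its exact two-sided permutation p was 0.1, the smallest that 3 arrays against 3 allow. That test ignores the shared experiments. A permutation paired by experiment was not run and could give no p under 0.25. A difference this low or lower was seen for 0.310% of probe sets. Without MO13 array 2 the difference was -0.70, and without experiment 2 it was -0.77.

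Against CMO, MO13+C13 lay at -0.93 for cxcr4.S (SE 0.55, 95% interval -2.19 to 0.33, limma adjusted p = 0.856, and 0.217 with the block). The differences by experiment were -0.86, -1.55 and -0.38, and 1.10% of probe sets lay as low or lower. Without MO13+C13 array 2 it was -0.55. Between MO13+C13 and MO13 the difference was 0.41 (SE 0.55, 95% interval -0.85 to 1.67, limma adjusted p = 1), with 0.06, 0.94 and 0.24 by experiment, and it turned to -0.23 without MO13 array 2. The comparisons share arrays: MO13 enters the first with one sign and the last with the other, so these values are not independent of each other.

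The L copy of the receptor overlapped between all groups. The cxcr4.L probe set read 9.0, 8.82 and 8.99 in MO13+C13, 9.55, 8.88 and 8.03 in MO13 and 9.25, 8.99 and 8.93 in CMO. In MO13 array 3 it was low, where cxcr4.S was at its highest for that group. MO13 differed from CMO by -0.24 (SE 0.33, 95% interval -0.99 to 0.52, limma adjusted p = 0.969), with 0.30, -0.11 and -0.90 by experiment. Over the 9 arrays, which share experiments, the S and L probe sets correlated at r = 0.06. The change of cxcr4.S minus that of cxcr4.L was -1.11 between MO13 and CMO (exact two-sided permutation p = 0.4) and -0.81 between MO13+C13 and CMO (exact permutation p = 0.1, the smallest possible, and 0.9 adjusted over the 9 such tests run). The change of cxcr4.S minus that of cxcr4.L between MO13+C13 and CMO was negative in 3 of 3 experiments (-0.61, -1.38 and -0.44). Between MO13 and CMO it was -1.22, -2.38 and 0.28 by experiment, so its sign turned in experiment 3. With 3 arrays a group these tests cannot reach 0.05, so whether the copies changed unequally is not settled by them.

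**Figure D1:**
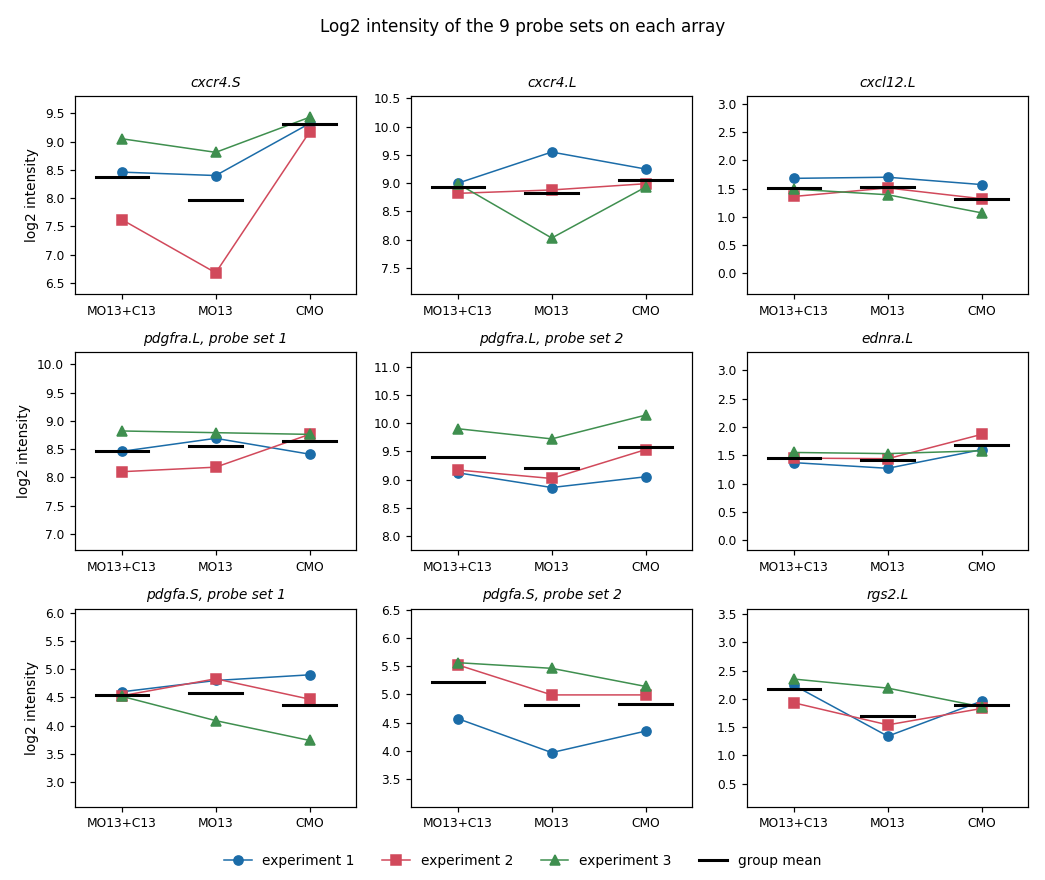
Log2 intensity (vertical axis, each panel spanning the same number of log2 units) of the 9 probe sets in the MO13+C13, MO13 and CMO arrays. Each coloured line joins the arrays of 1 experiment and black bars are group means; cxcr4.S lay between 6.68 and 9.05 in the arrays with the ADAM13 morpholino and between 9.17 and 9.43 in CMO.

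Explants are bulk samples, in which fewer cells of a type and less RNA per cell cannot be told apart. Summed linear signal of the crest marker list (11 of 13 gene names found) was 9773 to 11335 in MO13+C13, 11187 to 12001 in MO13 and 10750 to 11947 in CMO, with MO13 and CMO overlapping. This sum is weighted to bright copies and hides opposite directions. Of its 15 copies 5 lay higher and 10 lower in MO13 than in CMO. For example, sox9.S stood at 0.43 and foxd3.L at -0.40 (limma adjusted p = 0.704 and 0.829). Epidermal markers (10 of 14 names) summed to 7975 to 8514 in MO13+C13, 6117 to 7038 in MO13 and 7094 to 7490 in CMO. In every array MO13 lay below CMO, as for cxcr4.S, while MO13+C13 lay above it. The brightest epidermal copy was krt70.S (mean 11.73 over the 9 arrays), followed by epcam.S at 9.74. Of the 15 copies 3 lay higher and 12 lower in MO13 than in CMO, and 10 higher and 5 lower in MO13+C13. Against CMO, 2 copies passed in MO13+C13 with experiment as a block, beside 1.76% of all probe sets. They were cldn6.2.S and grhl3.L (limma adjusted p = 0.0172 and 0.0287, and 0.464 and 0.633 without the block). Blood and endothelial markers (8 of 11 names) summed to 43 to 56, 40 to 47 and 50 to 59 in the same order of groups, with MO13 below CMO. Means of 7 of their 9 copies lay under the lower quartile, among them hba3.L and pecam1.L. The largest part of this sum was gata2.L, which read 4.33, 4.38 and 4.55 in MO13 and 4.68, 4.91 and 4.79 in CMO (limma adjusted p = 0.839). Neural plate markers (9 of 10 names) summed to 7284 to 7565, 7070 to 8126 and 7457 to 7609. Placode markers (5 of 8) gave 997 to 1300, 415 to 1123 and 714 to 807. That sum was nearly all pax6.L (mean 9.66 over the 9 arrays, with the next copy, foxi4.2.L, at 4.76), so it follows a single probe set. Gland markers (4 of 8) gave 44 to 89, 31 to 53 and 28 to 45. Muscle and mesoderm markers (9 of 13) gave 36 to 44, 35 to 67 and 43 to 45. The 67 was MO13 array 1, where myl1.L read 5.01. Of the 12 muscle copies 4 lay higher and 8 lower in MO13 than in CMO. Among them tnnt3.S read 2.38, 2.36 and 2.52 in MO13+C13, 2.27, 2.59 and 2.74 in MO13 and 3.50, 3.24 and 3.88 in CMO. With experiment as a block it passed against CMO in MO13 (limma adjusted p = 0.0252) and in MO13+C13 (0.0172). Of all probe sets 1.16% and 1.76% did. Without the block it did not pass (limma adjusted p = 0.159 and 0.0962). Notochord and endoderm markers (6 of 10) gave 43 to 168, 52 to 151 and 37 to 105. The largest part was not.L (mean 5.74 over the 9 arrays, with the next copy, not.S, at 2.72). Means of 5 of the 8 copies lay under the lower quartile. The part of these tissues in the cxcr4.S values was not tested.

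The chemokine itself was at the bottom of the array's scale. The cxcl12.L probe set read 1.68, 1.36 and 1.49 in MO13+C13, 1.70, 1.51 and 1.39 in MO13 and 1.57, 1.32 and 1.07 in CMO. It lay under the lower quartile of its array in 9 of 9 arrays, and the groups overlapped. MO13 minus CMO was 0.21 (SE 0.16, 95% interval -0.16 to 0.58, limma adjusted p = 0.911), positive in 3 of 3 experiments. MO13+C13 minus CMO was 0.19 (limma adjusted p = 0.948) and MO13+C13 minus MO13 was -0.02 (limma adjusted p = 1). Low values after background correction bound what can be read here: no detection calls were used, and a low level cannot be separated from background.

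The PDGF receptor varied more between experiments than between groups. The second pdgfra.L probe set read 9.12, 9.17 and 9.90 in MO13+C13, 8.86, 9.02 and 9.72 in MO13 and 9.05, 9.53 and 10.14 in CMO. The 3 arrays of experiment 3, from 9.72 to 10.14, lay above all others. Experiment held 83.7% of the sum of squares of this probe set and group 13%. Within experiments MO13 lay below CMO each time (-0.19, -0.51 and -0.42), giving a mean difference of -0.37 (SE 0.35, 95% interval -1.17 to 0.42, limma adjusted p = 0.941). It was -0.09 without CMO array 3 and -0.64 without CMO array 1. With experiment as a block the interval narrowed to -0.64 to -0.11, but the limma adjusted p of 0.164 still missed the threshold. MO13+C13 minus MO13 was 0.20 and positive in 3 of 3 experiments (limma adjusted p = 1), and MO13+C13 minus CMO was -0.18 (limma adjusted p = 0.995).

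In the first pdgfra.L probe set experiment 3 also read high, from 8.76 to 8.82, with CMO array 2 level with its lowest value, and experiment held 49.5% of the sum of squares against 8.33% for group. It read 8.46, 8.10 and 8.82 in MO13+C13, 8.69, 8.18 and 8.79 in MO13 and 8.41, 8.76 and 8.76 in CMO. The groups overlapped, and the low values were those of experiment 2 with the ADAM13 morpholino. MO13 minus CMO was -0.09 (SE 0.23, 95% interval -0.62 to 0.44, limma adjusted p = 0.994), with 0.28, -0.58 and 0.03 by experiment. MO13+C13 minus MO13 was -0.09, with -0.23, -0.08 and 0.03 by experiment, so the rise of the second probe set was not seen in the first. The 2 probe sets correlated at r = 0.65 over the 9 arrays, and the difference between their MO13 changes was -0.28 (exact two-sided permutation p = 0.6).

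The ligand gene pdgfa.S gave 2 probe sets that ran against each other. The first read 4.60, 4.53 and 4.52 in MO13+C13, 4.80, 4.83 and 4.09 in MO13 and 4.90, 4.47 and 3.74 in CMO. The second read 4.57, 5.52 and 5.56 in MO13+C13, 3.97, 4.99 and 5.46 in MO13 and 4.35, 4.99 and 5.14 in CMO. In experiment 1 the second stood lowest, from 3.97 to 4.57, under every array of the other experiments. Means over experiments 1, 2 and 3 were 4.77, 4.61 and 4.12 for the first and 4.30, 5.17 and 5.39 for the second, so the orders were opposite. Their correlation over the 9 arrays was r = -0.53, and experiment held 61.8% and 81.0% of their sums of squares.

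Between groups the second pdgfa.S probe set was higher in MO13+C13 than in MO13 in 3 of 3 experiments (0.60, 0.53 and 0.10), with a mean difference of 0.41 (SE 0.43, 95% interval -0.57 to 1.39, limma adjusted p = 1). With experiment as a block the interval was 0.068 to 0.75 (limma adjusted p = 0.721). Against CMO, MO13+C13 stood at 0.39 (limma adjusted p = 0.977), and MO13 at -0.02 (limma adjusted p = 0.997). The block interval of MO13+C13 minus CMO was 0.048 to 0.73 (limma adjusted p = 0.253). The first probe set gave -0.02, 0.18 and 0.20 for the same 3 comparisons (limma adjusted p = 1, 0.993 and 0.974). Neither probe set separated any pair of groups.

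The endothelin receptor too lay near the bottom of the array's scale. The ednra.L probe set read 1.37, 1.45 and 1.55 in MO13+C13, 1.27, 1.44 and 1.53 in MO13 and 1.60, 1.87 and 1.58 in CMO, under the lower quartile in 8 of 9 arrays. Both groups with the ADAM13 morpholino lay wholly below CMO, with 1.53 in MO13 and 1.55 in MO13+C13 close to the lowest CMO array at 1.58. MO13 minus CMO was -0.27 (SE 0.13, 95% interval -0.56 to 0.02, limma adjusted p = 0.753). MO13+C13 minus CMO was -0.23 (SE 0.13, 95% interval -0.52 to 0.06, limma adjusted p = 0.838). Both differences were negative in 3 of 3 experiments. With experiment as a block the intervals were -0.54 to -0.0043 (limma adjusted p = 0.297) and -0.49 to 0.039 (limma adjusted p = 0.389). MO13+C13 minus MO13 was 0.04 (limma adjusted p = 1). Group held 54.9% of the sum of squares, the most of the 9 probe sets, followed by cxcr4.S with 44.0% and rgs2.L with 41.6%.

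The regulator rgs2.L read 2.24, 1.93 and 2.35 in MO13+C13, 1.34, 1.54 and 2.19 in MO13 and 1.96, 1.83 and 1.86 in CMO. In MO13 arrays 1 and 2 lay below the other groups, while array 3 did not, and all 9 arrays lay below their median. MO13 arrays 1 and 2 and CMO array 3 lay under the lower quartile of their arrays, where a low level cannot be separated from background. MO13+C13 minus MO13 was 0.48 (SE 0.22, 95% interval -0.02 to 0.99, limma adjusted p = 1), positive in 3 of 3 experiments with 0.90, 0.39 and 0.16. It was 0.28 without experiment 1 and 0.73 without MO13 array 3. With experiment as a block its interval was 0.058 to 0.91 (limma adjusted p = 0.721). MO13+C13 minus CMO was 0.29 (limma adjusted p = 0.933) and MO13 minus CMO was -0.19 (limma adjusted p = 0.956).

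**Figure D2:**
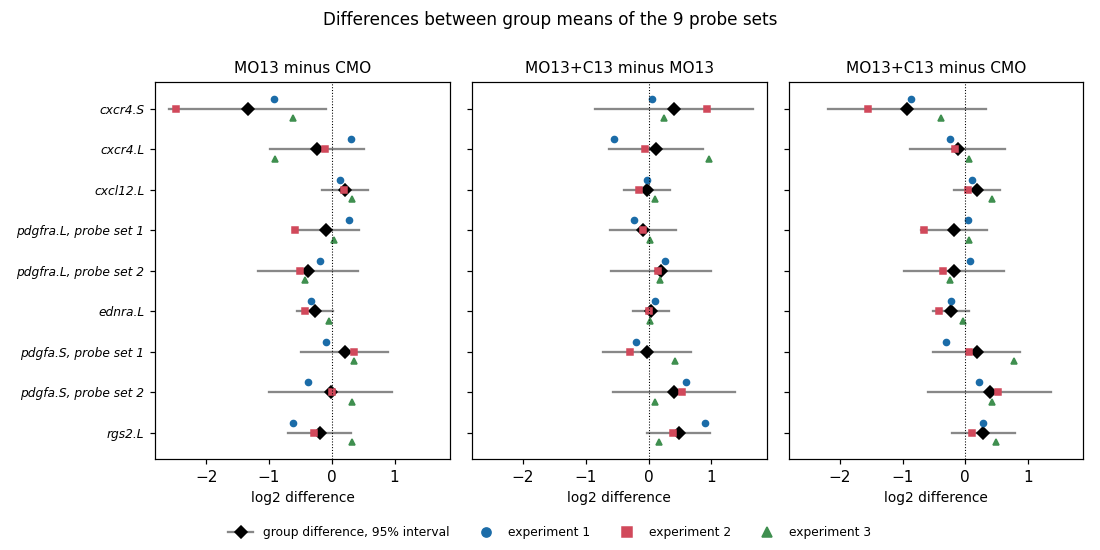
Log2 differences between group means (black diamonds) with 95% limma intervals (grey lines) for the 9 probe sets in the 3 comparisons; coloured symbols are the differences within each experiment. Without the block, the only interval of the 27 that does not reach 0 is cxcr4.S between MO13 and CMO, -2.60 to -0.08. Its limma adjusted p was 0.695. With experiment as a block (not drawn), ednra.L (-0.54 to -0.0043) and the second pdgfra.L probe set (-0.64 to -0.11) also missed 0 there. So did cxcr4.S (-1.68 to -0.18) and the second pdgfa.S probe set (0.048 to 0.73) between MO13+C13 and CMO. Between MO13+C13 and MO13 the second pdgfa.S probe set (0.068 to 0.75) and rgs2.L (0.058 to 0.91) did. No adjusted p fell under 0.05.

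Taking the 9 probe sets as a group, limma called 0 in any of the 3 comparisons, with and without the block. Between MO13 and CMO the test called 0.0968% of all probe sets, and 1.16% with the block. At an unadjusted limma p under 0.05 there were 0 higher and 1 lower of the 9, cxcr4.S, where 3.16% and 3.71% of all probe sets were. With the block there were 0 higher and 3 lower, cxcr4.S, ednra.L and the second pdgfra.L probe set, beside 7.56% and 8.88%. The same 3 were lower in 3 of 3 experiments, beside 18.7%, and cxcl12.L was higher in all, beside 17.7%. Groups lay wholly apart with MO13 lower for 2 of 9, cxcr4.S and ednra.L, beside 5.06% of all probe sets, and with MO13 higher for 0 of 9, beside 4.85%. The median difference of the 9 was -0.19, against -0.01 over all probe sets.

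Between MO13+C13 and CMO limma called 0.142% of all probe sets, and 1.76% with the block. Groups lay apart with MO13+C13 lower for the same 2 of 9, cxcr4.S and ednra.L, beside 6.42%, and higher for 0 of 9, beside 6.13%. Unadjusted limma p-values under 0.05 numbered 0 of 9 without the block, beside 3.47% higher and 3.67% lower over all probe sets. They numbered 2 with the block, 1 higher (the second pdgfa.S probe set) and 1 lower (cxcr4.S), where 7.83% and 8.24% of all probe sets had them. In 3 of 3 experiments 3 were higher (cxcl12.L, the second pdgfa.S probe set and rgs2.L), beside 19.1%, and 2 lower (cxcr4.S and ednra.L), beside 19.8%. The median difference was -0.12, against 0.00 over all probe sets.

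Between MO13+C13 and MO13 limma called 0.00646% of all probe sets, the adam33.L probe set alone, with and without the block. None of the 9 had groups apart, beside 1.96% higher and 2.55% lower. The difference was positive in 3 of 3 experiments for 5 of 9, namely cxcr4.S, the second pdgfra.L and second pdgfa.S probe sets, ednra.L and rgs2.L, beside 11.7% of all probe sets, and negative in all experiments for 0 of 9, beside 14.0%. The differences of these 5 ran from 0.04 for ednra.L to 0.48 for rgs2.L. The first pdgfra.L and first pdgfa.S probe sets, of the same genes, stood at -0.09 and -0.02. At an unadjusted limma p under 0.05 there were 0 without the block, beside 0.807% higher and 0.555% lower. With it there were 2 higher, the second pdgfa.S probe set and rgs2.L, beside 3.89%, and 0 lower, beside 2.83%. The members were chosen with earlier results of these data known, so these shares describe them and test nothing.

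**Figure D3:**
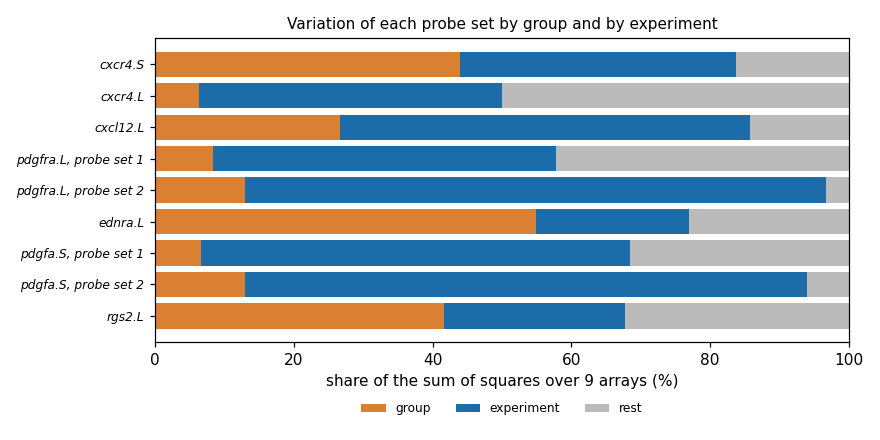
Share of the sum of squares over 9 arrays (horizontal axis, %) that lies between groups, between experiments and in the rest, for each probe set. Experiment held the most for the second pdgfra.L (83.7%) and second pdgfa.S (81.0%) probe sets, and group the most for ednra.L (54.9%).

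Partners of these genes were followed in 7 lists, with 95 gene copies in all, each by its brightest probe set. The genes named from the lists were called or had the smallest limma p there, a choice that favours groups lying apart. How many of the 95 copies had groups apart was not counted. Adjusted p-values of list genes are without the block unless the block is named. Over the lists limma called 0 copies in the 3 comparisons without the block. At an unadjusted limma p under 0.05, 1 of 95 was higher and 2 lower between MO13 and CMO, beside 3.16% and 3.71% of all probe sets. For MO13+C13 against MO13, 3 were higher and 0 lower, beside 0.807% and 0.555%, and between MO13+C13 and CMO 2 were higher and 0 lower, beside 3.47% and 3.67%. With the block 1 of 95 passed, between MO13+C13 and CMO, beside 1.76% of all probe sets, which is no more than the background. This was pak1.S, a kinase activated by Rac and Cdc42. It read 5.84, 5.33 and 4.65 in MO13+C13, against 4.59, 4.35 and 3.33 in CMO, and lay higher in 3 of 3 experiments by 1.18 on average (SE 0.42, limma adjusted p = 0.56 without and 0.0411 with the block). In MO13 it read 4.75, 5.28 and 4.35.

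Of the chemokine list 8 of 27 names were found, as 9 copies, of which 5 lay higher and 4 lower in MO13 than in CMO (median 0.01). The scavenger receptor of Cxcl12, ackr3.L, stood at 0.41 in MO13+C13 over MO13 (1.76 and 1.35, limma adjusted p = 1), at a level under the lower quartile. The inhibitory G protein subunit gnai2.S stood at -0.51 in MO13+C13 against CMO (6.31 and 6.82, limma adjusted p = 0.758, and 0.0951 with the block). Complement c3.L, whose C3a fragment holds Xenopus crest cells together by mutual attraction, was at 11.89 in MO13 and 12.08 in CMO (limma adjusted p = 0.947).

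Of the PDGF list 9 of 14 names were found, as 13 copies, 7 higher and 6 lower in MO13 than in CMO (median 0.12). The PI 3-kinase subunit pik3r1.S read 5.83, 5.18 and 5.35 in MO13+C13, against 4.70, 4.84 and 4.44 in CMO. The difference was 0.79 (SE 0.20, limma adjusted p = 0.297, and 0.123 with the block) with the groups apart, beside 6.13% of all probe sets. In the same comparison the adaptor nck1.S stood at 0.61 (limma adjusted p = 0.744, and 0.119 with the block). The receptor-like gene pdgfrl.L stood at -0.24 there (limma adjusted p = 0.851, and 0.297 with the block). The mean of pdgfrl.L over the arrays, 1.66, lay under the lower quartile.

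The endothelin list gave 9 of 18 names as 10 copies, 3 higher and 7 lower in MO13 than in CMO (median -0.14). The homeobox gene dlx5.L, a target of Ednra signalling in the mouse jaw crest, read 6.75, 7.09 and 6.39 in MO13, against 7.66, 7.18 and 7.12 in CMO. These 2 groups did not overlap, beside 5.06% of all probe sets, with a difference of -0.58 (SE 0.22, limma adjusted p = 0.642). In MO13+C13 dlx5.L read 7.35, 7.08 and 7.04. The transcription factor hand2.S, at 1.19 in MO13+C13 and 1.52 in CMO, and the Gq family subunit gna11.S, at 9.62 in MO13 and 9.39 in CMO, did not pass (limma adjusted p = 0.877 and 0.901). The mean of hand2.S over the arrays, 1.32, lay under the lower quartile.

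The ErbB list gave only 3 of 17 names, none of them a receptor or a neuregulin. These were the receptor inhibitor errfi1.L (-0.34 in MO13 against CMO, limma adjusted p = 0.85), the ubiquitin ligase rnf41.L (0.21 in MO13+C13 against MO13, limma adjusted p = 1) and the sheddase adam10.S (-0.10 in MO13+C13 against CMO, limma adjusted p = 0.996). Other, dimmer probe sets of adam10.S gave 0.16, -0.09 and 0.02 in MO13+C13 against CMO. The RGS list gave 9 of 19 names as 10 copies, 7 of them with means under the lower quartile, and 5 lay higher and 5 lower in MO13 than in CMO. Closest to a call were rgs12.S at 0.37 and rgs19.S at -0.33 in MO13 against CMO, and rgs16.L at -0.17 in MO13+C13 against CMO (limma adjusted p = 0.878, 0.885 and 0.908).

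Among other guidance genes 26 of 37 names were found, as 32 copies, 12 higher and 20 lower in MO13 than in CMO (median -0.05). The semaphorin co-receptor plxna1.L read 7.83, 7.52 and 7.33 in MO13+C13, 6.44, 6.94 and 7.24 in MO13 and 7.37, 7.43 and 7.72 in CMO. MO13 lay below each of the other groups in every array, by 0.69 against MO13+C13 (SE 0.22, limma adjusted p = 1). Over all probe sets, MO13 lay wholly below MO13+C13 for 1.96% and wholly below CMO for 5.06%. The heparan sulphate proteoglycan sdc4.S, which steers crest cells in Xenopus, read 9.26, 9.49 and 9.03 in MO13, against 8.90, 8.96 and 8.61 in CMO, a difference of 0.44 (SE 0.17, limma adjusted p = 0.659). The netrin receptor dcc.S, at 1.19 in MO13 and 1.43 in CMO, stood at -0.23 (limma adjusted p = 0.795). Its other probe set gave -0.0033 (limma adjusted p = 0.997), and both had means under the lower quartile. The 18 copies of the motility list split into 9 higher and 9 lower.

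**Figure D4:**
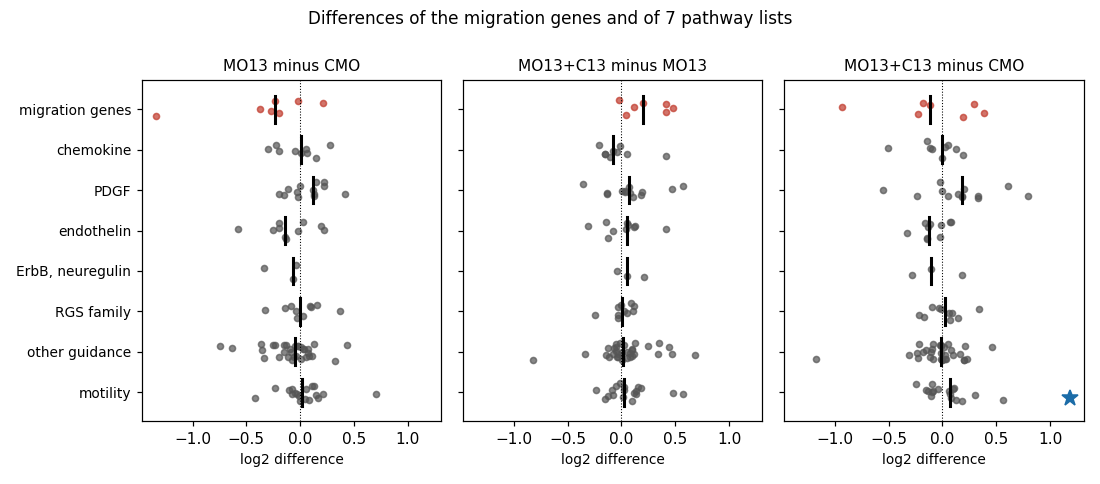
Log2 differences in the 3 comparisons for the migration genes (top, 7 gene copies, brightest probe set each) and for 7 lists of pathway genes; black bars are list medians. The star marks pak1.S at 1.18, the only one of 95 list copies called with experiment as a block, and the leftmost point of the left panel is cxcr4.S at -1.34.

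Patterns over the 9 arrays were compared with those of probe sets at or above the median level by Pearson's r. This is a description, since the arrays share 3 experiments. Closest to cxcr4.S were odf2l.L (r = 0.95), rexo4.S (0.95) and triap1.S (0.94), and with experiment means subtracted these were 0.96, 0.94 and 0.94. Closest to cxcr4.L were gnl2.L (0.91), aftph.S (0.91) and the ribosomal protein gene rpl8.S (0.90). With experiment means subtracted these were 0.855, 0.847 and 0.846. The second pdgfra.L probe set ran closest to fkbp9.L (0.97), the ephrin receptor gene epha4.L (0.97) and nrbp1.L (0.96), and with experiment means subtracted these were 0.95, 0.78 and 0.81.

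The second pdgfa.S probe set was nearest to mfsd14bl.S (0.99), wdtc1.S (0.98) and tptep2-csnk1e.L (0.97). Nearest to cxcl12.L were prkag1.L (0.96), srp72.S (0.96) and irs1.L (0.96). For ednra.L they were rbm17.L (0.91), pycr3.L (0.91) and alkbh6.L (0.89), and for rgs2.L riox2.L (0.95), tmed4.S (0.94) and tab3.L (0.93). With experiment means subtracted, the matches of pdgfa.S stood at 0.973, 0.879 and 0.911 and those of cxcl12.L at 0.929, 0.908 and 0.954. Those of ednra.L stood at 0.899, 0.882 and 0.854 and those of rgs2.L at 0.935, 0.961 and 0.915. Each named match was among the best 3 of 5216 or 5218 candidates. Signal near the bottom of the scale limits what the matches of cxcl12.L, ednra.L and rgs2.L can mean.

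The authors' deposited table of probe sets affected by the loss of ADAM13 holds 39.5% of all probe sets, and their second table, on loss and added domain, 13.5%. Of the 9 migration probe sets the authors' deposited table for the loss lists 4, cxcr4.S, cxcl12.L, ednra.L and the second pdgfra.L probe set. The authors' deposited table for loss and added domain lists 3, all of these but cxcl12.L. In the authors' deposited table the log2 changes of MO13 over CMO were -1.34 for cxcr4.S, -0.37 for pdgfra.L, -0.27 for ednra.L and 0.21 for cxcl12.L, as in the values above. The test behind the tables' threshold of 0.01 is not stated in any source at hand.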

How the data were processed

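The authors deposited log2 intensities. The submitters' processing notes name Affymetrix Expression Console and GCRMA; no version was found in the labels. All 15491 probe sets of the 9 arrays were tested; 9304 carry 1 gene symbol, 195 several and 5992 none. The authors' lists hold the same log2 values (largest difference 0), and their average changes are differences in log2, per the file headers.

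Groups were compared with limma 3.58.1 (lmFit, eBayes) in R 4.3.3, with all 9 arrays in a single fit on group alone. The two-sided p-values were adjusted by Benjamini-Hochberg across the 15491 probe sets and called under 0.05. SDs are over 3 arrays, whose number limits the precision. The labels name shared experiments for equal replicate numbers; deviations from group means correlated at 0.506 to 0.734 for the 9 pairs of arrays from 1 experiment and at -0.464 to -0.0592 for the other 18. Experiment as a block was therefore the foremost alternative. The exact permutation tests did not keep the arrays paired by experiment.

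Members and lists were chosen with earlier results of these data known. All member probe sets are named, with the genes of each list called with or without the block or, failing these, the 3 with the smallest unadjusted p, and the 3 best correlated probe sets with 1 symbol at or above the median level. Lists use the brightest probe set per symbol. Marker sums add linear intensities, as 2 to the power of the log2 value. On simulated data the mean estimate of known changes lay close to the truth. How many such changes the fit calls is not given here. Alternatives were centring, a filter on dim probe sets, a trended prior, only the compared arrays, and leaving out arrays or experiments. No sequence is printed, since none was in the files used here.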

Additional observations from a re-analysis of the deposited data

How the results depend on the processing

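None of the 27 differences of the 9 probe sets was called under any alternative run, the lowest adjusted p being 0.0987 for cxcr4.S between MO13 and CMO with the replicate block; the block changed no call of a member. Centring on array medians turned the sign of ednra.L between MO13+C13 and MO13 (-0.013) and of the second pdgfa.S probe set between MO13 and CMO (0.043). The counts of called probe sets moved more. Between MO13 and CMO limma called 15, but 179 with the replicate block, 0 with only the compared arrays (860 at an unadjusted p under 0.05), 9 among brighter probe sets and 8 with a trended prior. Between MO13+C13 and CMO it called 22, but 272 with the replicate block and 9 with only the compared arrays. Leaving out an array or an experiment gave counts from 0 to 14 for MO13 against CMO (607 to 1643 at an unadjusted p under 0.05), from 0 to 23 for MO13+C13 against CMO (697 to 1248) and from 0 to 1 for MO13+C13 against MO13 (107 to 1114). The first was 0 without MO13 array 2 and without any experiment, the second 0 without experiment 1 or 3 and 1 without experiment 2, and the last 0 without MO13 array 1, any MO13+C13 array, or experiment 1 or 3. The cause was not tested, beyond the fewer arrays in these fits.

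Over 324 values with an array or experiment left out, 294 kept their sign and 30 turned. Those that turned came, between MO13 and CMO, from cxcr4.L (-0.60 to 0.16), the first pdgfra.L probe set (-0.28 to 0.16), both pdgfa.S probe sets (-0.11 to 0.47 and -0.35 to 0.40) and rgs2.L (-0.46 to 0.02). Between MO13+C13 and MO13 they came from cxcr4.S (-0.23 to 0.84), cxcr4.L (-0.31 to 0.48), cxcl12.L (-0.11 to 0.06), both pdgfra.L probe sets (-0.28 to 0.087 and -0.055 to 0.46), both pdgfa.S probe sets (-0.27 to 0.12 and -0.0083 to 0.74) and ednra.L (-0.028 to 0.10). Between MO13+C13 and CMO they came from both pdgfra.L probe sets (-0.36 to 0.055 and -0.44 to 0.11) and the first pdgfa.S probe set (-0.14 to 0.45). The cxcr4.S difference kept its sign between MO13 and CMO (-1.77 to -0.70) and between MO13+C13 and CMO (-1.27 to -0.55). Signs also held, with sizes moving by over 1.5 times, between MO13 and CMO for the second pdgfra.L probe set (-0.64 to -0.09), cxcl12.L (0.088 without CMO array 3 to 0.34 without CMO array 1) and ednra.L (-0.38 without experiment 3 to -0.18 without CMO array 2). The same was true between MO13+C13 and MO13 for rgs2.L (0.28 to 0.73), and between MO13+C13 and CMO for cxcl12.L (0.065 to 0.32, the same CMO arrays), cxcr4.L (-0.21 without experiment 3 to -0.023 without CMO array 1), ednra.L (-0.33 without experiment 3 to -0.13 without experiment 2), the second pdgfa.S probe set (0.15 without CMO array 1 to 0.71 without MO13+C13 array 1) and rgs2.L (0.19 without experiment 3 to 0.41 without MO13+C13 array 2). Signal near the bottom of the scale limits cxcl12.L, ednra.L and rgs2.L.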
